A study of Mus musculus with 19 samples.

Results

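The amyloid precursor and secretase genes described here are 9 mouse genes chosen by name. They are the substrates App, Aplp1 and Aplp2, the alpha-secretase Adam10, the beta-secretase Bace1 and 4 genes of the gamma-secretase complex (Psen2, Ncstn, Aph1a and Psenen). All 9 were found by Ensembl identifier among the 48709 genes of the count files, and all 9 were among the 19286 genes with enough reads to be tested. RNA was sequenced from microdissected hippocampal CA1 tissue of male C57B/6J wild-type mice. The young group (n = 6 libraries) was 3 months old, and the old control (n = 6) and old anti-miR-mix (n = 7) groups were 16.5 months old. Young and old control mice received scrambled control oligonucleotides in lipid nanoparticles. The old anti-miR-mix mice received, in the same carrier, inhibitors of 3 microRNAs as a mixture (miR-148a-3p, miR-146a-5p and miR-181a-5p). The injections went into the dorsal hippocampus on both sides. These animals carried no transgene, so the reads came from the endogenous mouse genes. No young group received the inhibitors, and a pooling of animals is not stated. The labels number the libraries without saying that each came from its own mouse, so the p-values measure the spread between these libraries.

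App is a membrane protein of neurons and other cells that is cut in succession by secretases. Adam10 cuts within the amyloid-beta sequence and releases a soluble ectodomain, whereas Bace1 cuts at the start of that sequence, and the gamma-secretase complex then cuts the remaining membrane stub. Cleavage by Bace1 followed by gamma-secretase gives amyloid-beta, the peptide that accumulates in Alzheimer's disease, and the App-like proteins Aplp1 and Aplp2 are cut by the same enzymes but contain no amyloid-beta sequence.

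The libraries held between 26653511 and 38908947 counted reads. Of 51 pairs of libraries within a group, old control replicates 5 and 6 were the most alike. Their counts differed with a chi-square of 2.18 per degree of freedom over 12780 genes, against 6.1 for the next pair and 35.87 for the most different. They were kept as 2 libraries, and results were also computed with the pair as 1. A number from 1 to 4 per library, whose origin is not described, had been used by the authors to correct the deposited log2 values, and is called the processing group here. Across processing groups 1 to 4 the young libraries numbered 1, 1, 2 and 2. The old controls numbered 2, 2, 0 and 2, and the libraries with inhibitors 1, 2, 3 and 1. Markers of CA1 pyramidal neurons were present (summed level of 6 genes 697.2 to 1002 CPM, that is counts scaled to library size), and those of CA3 and the dentate gyrus summed to 75.83 to 144.7 CPM.

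The inhibitors were antisense to mature microRNAs whose seeds (bases 2 to 8, in capitals) pair with messenger RNAs. The mature sequences, from RefSeq, are shown because the inhibitors were directed against them.

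miR-146a-5p: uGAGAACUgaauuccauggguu
miR-148a-3p: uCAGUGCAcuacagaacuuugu
miR-181a-5p: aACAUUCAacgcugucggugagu

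The 3 inhibitors are shown as the study listed them, with the letters complementary to the seed in capitals. Each was complementary to its microRNA from mature base 2 or 3 to base 21 or 23.

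Inhibitor of miR-146a-5p: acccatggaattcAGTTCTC
Inhibitor of miR-148a-3p: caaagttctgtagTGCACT
Inhibitor of miR-181a-5p: actcaccgacagcgtTGAATG

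Matches to the 3 seeds (AGTTCTC for miR-146a-5p, TGCACTG for miR-148a-3p and TGAATGT for miR-181a-5p, sense strand) were searched in the annotated 3′UTRs of the 9 genes. Only the longest annotated 3′UTR of each gene was searched. A match was found in 4 of the 9, against 34.7% of 15339 tested genes with an annotated 3′UTR. By microRNA, the matches were in 1, 2 and 1 of the 9 genes, against 12.3%, 14.8% and 18% of all. The 4 sites are given with the match in capitals, in GRCm38 and on the strand of the gene.

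App, miR-146a-5p, chr16:84953332-84953338, minus strand: tatgctaagtaAGTTCTCtaccaagtgag
Aplp2, miR-148a-3p, chr9:31150059-31150065, minus strand: ggctccctccaTGCACTGaccctctgcct
Adam10, miR-148a-3p, chr9:70779996-70780002, plus strand: gaagagatacaTGCACTGaactgtttcca
Psen2, miR-181a-5p, chr1:180227131-180227137, minus strand: gtgtgcagtcaTGAATGTccccagtgctg

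The sites of Aplp2 and Adam10 were followed by an A and lay in all annotated coding transcripts with a 3′UTR (3 of 3 and 1 of 1). The App site lay in 1 of 6 such transcripts, and the Psen2 site in 3 of 5. No match was found in the longest annotated 3′UTRs of Aplp1, Bace1, Ncstn, Aph1a and Psenen. A match is a description of letters and was not tested as a binding site.

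The genes lie on 5 chromosomes. App (ENSMUSG00000022892) is at chr16:84949685-85173766 on the minus strand. On chromosome 9 are Aplp2 (ENSMUSG00000031996, chr9:31149557-31211815, minus), Bace1 (ENSMUSG00000032086, chr9:45838580-45864399, plus) and Adam10 (ENSMUSG00000054693, chr9:70678997-70780229, plus). Aplp1 (ENSMUSG00000006651, chr7:30434982-30445535, minus) and Psenen (ENSMUSG00000036835, chr7:30561863-30563627, minus) are the closest pair, 116327 bases apart. Ncstn (ENSMUSG00000003458, chr1:172066013-172082795, minus) and Psen2 (ENSMUSG00000010609, chr1:180227004-180263438, minus) share chromosome 1, and Aph1a (ENSMUSG00000015750) is at chr3:95893969-95898288 on the plus strand. Exons of 4 of the 9 overlap a gene on the other strand, and whether reads were counted by strand is not stated. The overlap covers 17.5% of the exonic bases of Bace1 (with Rnf214 and Gm16536), 12.9% of those of Aph1a (Car14), 9.3% of those of Psenen (U2af1l4 and Gm49396) and 4.9% of those of Ncstn (Copa). Reads of these stretches cannot be assigned to one gene or the other from the files.

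The substrates were far more abundant than the secretases. Per kilobase of annotated exon, the mean level over 19 libraries was 359 CPM for Aplp1, 136 for App and 92.3 for Aplp2. The secretase genes followed with 23.6 CPM per kilobase for Adam10, 21.5 for Bace1 and 17.6 for Ncstn, then 3.9 for Psen2, 2.25 for Psenen and 1.48 for Aph1a. On this log2 CPM per kilobase scale, the ranges over libraries overlapped for Adam10 (4.41 to 4.68) and Bace1 (4.32 to 4.56), and for Psenen (0.77 to 1.49) and Aph1a (0.37 to 0.8). Neighbours at all other steps of this order did not overlap. The order of App and Aplp1, and that of Adam10 and Bace1, turned when the median length of coding transcripts replaced the annotated exons. App was then at 549, Aplp1 at 462, Bace1 at 27, Adam10 at 25.2 and Ncstn at 24.1 CPM per kilobase. Psenen and Aph1a had the fewest reads, 59 to 124 and 135 to 206 per library, and their levels are correspondingly less precise. The annotation and counting options behind the counts are not given, and whether these low counts reflect little RNA was not tested.

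No gene of the 9 passed the threshold in the comparison of ages or in that of treatments, and Bace1 passed it when both differed. By edgeR's quasi-likelihood test with Benjamini-Hochberg adjustment over all tested genes (adjusted p under 0.05), 0 of the 9 were called in old control against young, where 2.67% of all genes were called. In old anti-miR-mix against old control, 0 of the 9 were called beside 0.669% of all genes. In old anti-miR-mix against young, 1 of the 9, Bace1, was called lower, beside 1.63% of all genes called lower and 6.2% called in either direction. Bace1 is the enzyme of the first amyloidogenic cut. No gene of the 9 had groups that did not overlap in any comparison, beside 2.54%, 0.498% and 2.42% of all genes. At an unadjusted p under 0.05 the counts were 2, 0 and 2 of the 9, beside 18.1%, 10.5% and 19.6% of all genes, and the 2 were Aplp2 and Bace1 each time. DESeq2 gave the same counts of called genes among the 9. The median log2 fold change of the 9 was -0.018, 0.005 and 0.017 in the 3 comparisons, beside 0.006, 0 and 0.003 for all genes tested. The comparisons share libraries, so their values are not independent of each other. In tissue libraries, fewer cells of a type and less RNA per cell cannot be told apart.

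**Figure D1:**
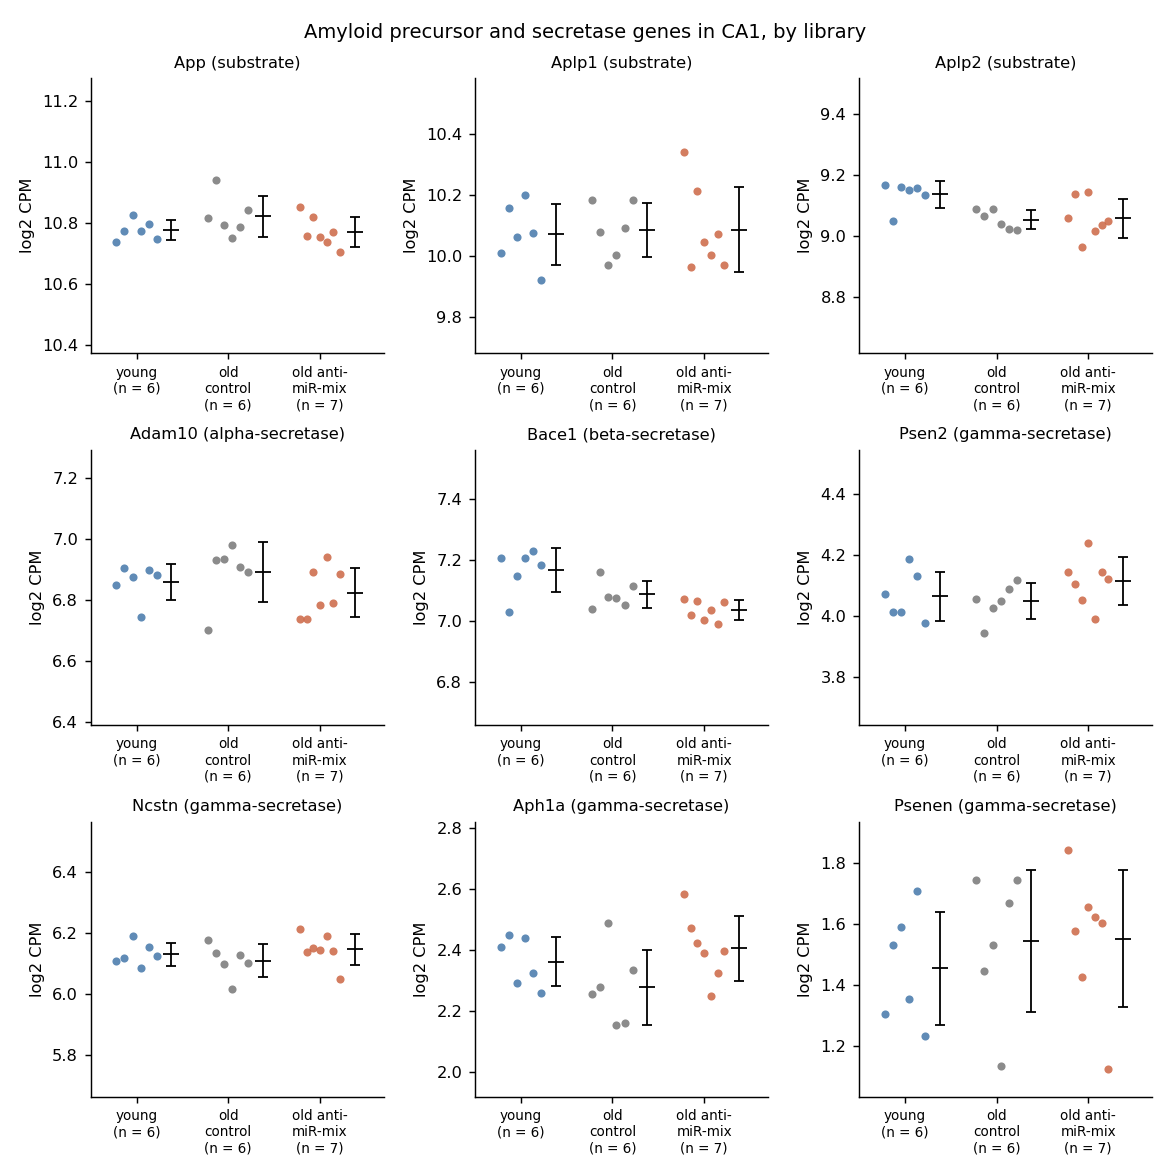
Log2 CPM (vertical axis, the same span in every panel) of the 9 genes in each library of the young (n = 6), old control (n = 6) and old anti-miR-mix (n = 7) groups, as points, with the mean and SD as bars. In every panel the 3 groups overlap, and for Bace1 all 7 old anti-miR-mix libraries lie below 5 of the 6 young libraries.

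**Figure D2:**
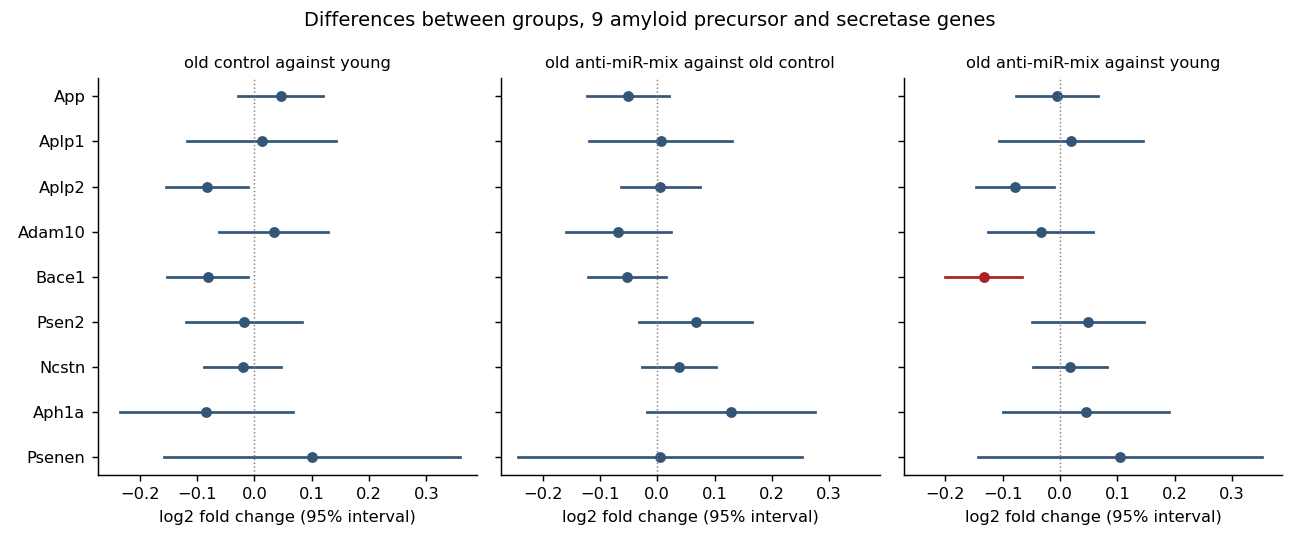
Log2 fold change of each gene (points) with its 95% interval (lines) in the 3 comparisons, from edgeR. The intervals of Aplp2 and Bace1 lie below 0 in old control against young and in old anti-miR-mix against young, and Bace1 in the last comparison, in red, is the only gene of the 9 past the adjusted threshold.

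Among the substrates, App was steady. Its log2 CPM in the young libraries was 10.74, 10.78, 10.83, 10.77, 10.80 and 10.75. The old control libraries were at 10.82, 10.94, 10.79, 10.75, 10.79 and 10.84, and the old anti-miR-mix libraries at 10.85, 10.76, 10.82, 10.75, 10.74, 10.77 and 10.70. The highest value was that of old control replicate 2, and the groups overlapped throughout. The log2 fold change was 0.046 (SE 0.036) in old control against young and -0.051 (SE 0.034) in old anti-miR-mix against old control, with adjusted p of 0.537 and 0.643. Without old control replicate 2 these differences were 0.021 and -0.026. Between old anti-miR-mix and young it was -0.005, with a 95% interval of -0.077 to 0.066, and the sign of this small difference turned in 6 of 23 alternatives.

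Aplp1, an App-like protein of neurons, varied most among the substrates, from 9.92 in young replicate 6 to 10.34 in old anti-miR-mix replicate 1. Its means were 10.07 ± 0.10 (SD, n = 6) in young, 10.08 ± 0.09 (n = 6) in old control and 10.09 ± 0.14 (n = 7) in old anti-miR-mix. The log2 fold changes were 0.013, 0.006 and 0.019 in the 3 comparisons, each with a 95% interval that reached at least 0.1 on either side of 0. Their signs turned in 4 of 22, 5 of 23 and 2 of 23 alternatives.

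Aplp2, the more widely expressed App-like protein, was lower in most old libraries. The young libraries were at 9.17, 9.05, 9.16, 9.15, 9.16 and 9.13 log2 CPM. The old control libraries were at 9.09, 9.07, 9.09, 9.04, 9.02 and 9.02, and the old anti-miR-mix libraries at 9.06, 9.14, 8.97, 9.14, 9.02, 9.04 and 9.05. Of the young libraries 5 of 6 were above every old control library, and replicate 2 lay among them. The log2 fold change was -0.083 (SE 0.034, 95% interval -0.154 to -0.012) in old control against young, with an unadjusted p of 0.0242 and an adjusted p of 0.196 from edgeR's quasi-likelihood test, so the gene was not called. Against young, old anti-miR-mix gave -0.078 (SE 0.033, adjusted p 0.182). Old anti-miR-mix and old control differed by 0.005 (95% interval -0.064 to 0.074), a sign that turned in 6 of 23 alternatives. In processing groups 1, 2 and 4 the difference between old control and young was -0.092, 0.016 and -0.125, and in groups 1 to 4 that between old anti-miR-mix and young was -0.109, 0.044, -0.115 and -0.11. Group 2 is the one that holds young replicate 2. This is one of the genes with a miR-148a-3p match.

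The alpha-secretase Adam10, which makes the non-amyloidogenic cut, was not called in any comparison. Its log2 CPM was 6.85, 6.90, 6.88, 6.75, 6.90 and 6.88 in the young libraries. It was 6.70, 6.93, 6.93, 6.98, 6.91 and 6.89 in the old control libraries, and 6.74, 6.74, 6.89, 6.79, 6.94, 6.79 and 6.89 in the old anti-miR-mix libraries. Old control replicate 1 was the lowest of all 19 libraries, while the other 5 old controls were at the upper end. Old anti-miR-mix against old control gave -0.068 (SE 0.044, adjusted p 0.631) with all libraries and -0.10 without old control replicate 1. The difference was below 0 in each of the 3 processing groups that hold both groups (-0.08, -0.144 and -0.11). Adam10 is the other gene with a miR-148a-3p match.

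Bace1 was lower in old anti-miR-mix than in young libraries. The young libraries were at 7.21, 7.03, 7.15, 7.21, 7.23 and 7.18 log2 CPM. The old control libraries were at 7.04, 7.16, 7.08, 7.08, 7.05 and 7.12, and the old anti-miR-mix libraries at 7.07, 7.02, 7.06, 7.00, 7.04, 6.99 and 7.06. Of the young libraries 5 of 6 were above all 7 old anti-miR-mix libraries, and young replicate 2 lay within their range. The group means were 7.17 ± 0.07 (SD, n = 6), 7.09 ± 0.04 (n = 6) and 7.04 ± 0.03 (n = 7). Old anti-miR-mix against young gave a log2 fold change of -0.133 (SE 0.033, 95% interval -0.201 to -0.066), that is 0.912-fold, with an adjusted p of 0.0149 by edgeR's quasi-likelihood test. The call held in 23 of 23 alternatives, with log2 fold changes of -0.153 to -0.121 and adjusted p of 0.00078 to 0.0453, the weakest with replicate numbers as a block. Within processing groups 1 to 4 the difference was -0.136, 0.012, -0.142 and -0.217, and group 2 again holds young replicate 2. Old control against young gave -0.081 (SE 0.034, adjusted p 0.199) and old anti-miR-mix against old control -0.052 (SE 0.033, adjusted p 0.615), so neither the part of the difference seen with age nor that seen with treatment was called by itself. No match to the 3 seeds was found in the longest annotated 3′UTR of this gene. Opposite-strand genes cover 17.5% of its exonic bases, and their part in the difference was not tested.

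Cell type markers differed between the same groups. In old anti-miR-mix against young, where 4.57% of all genes were called higher and 1.63% lower, 5 of 6 microglial markers were called higher, with a summed level of 365.2 to 486.8 CPM against 278.3 to 338.5, as were 2 of 6 astrocyte markers. Of 7 pan-neuronal markers 0 were called higher and 1 lower, and their sum was 5712 to 6239 CPM against 6036 to 6329. Oligodendrocyte markers summed to 6372 to 9407 CPM against 7085 to 11230, with 0 of 6 called. Also called lower were 1 of 6 CA1 pyramidal markers (697.2 to 981 CPM against 800.3 to 978) and 1 of 5 oligodendrocyte precursor markers (295.9 to 341.7 CPM against 308.2 to 376.7). Of 5 tested markers of thalamus and choroid plexus 1 was called higher (101.8 to 206.9 CPM against 99.09 to 121.1). In old control against young, 4 of 6 oligodendrocyte markers were called lower, beside 1.34% of all genes. So was 1 of 5 oligodendrocyte precursor markers (277.3 to 297.3 CPM against 308.2 to 376.7). Of 6 microglial markers 1 was called higher (337 to 383.4 CPM against 278.3 to 338.5), beside 1.32% of all genes. App and Bace1 are made by neurons and also by glia, and the part of cell composition in the Bace1 difference was not tested.

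**Figure D3:**
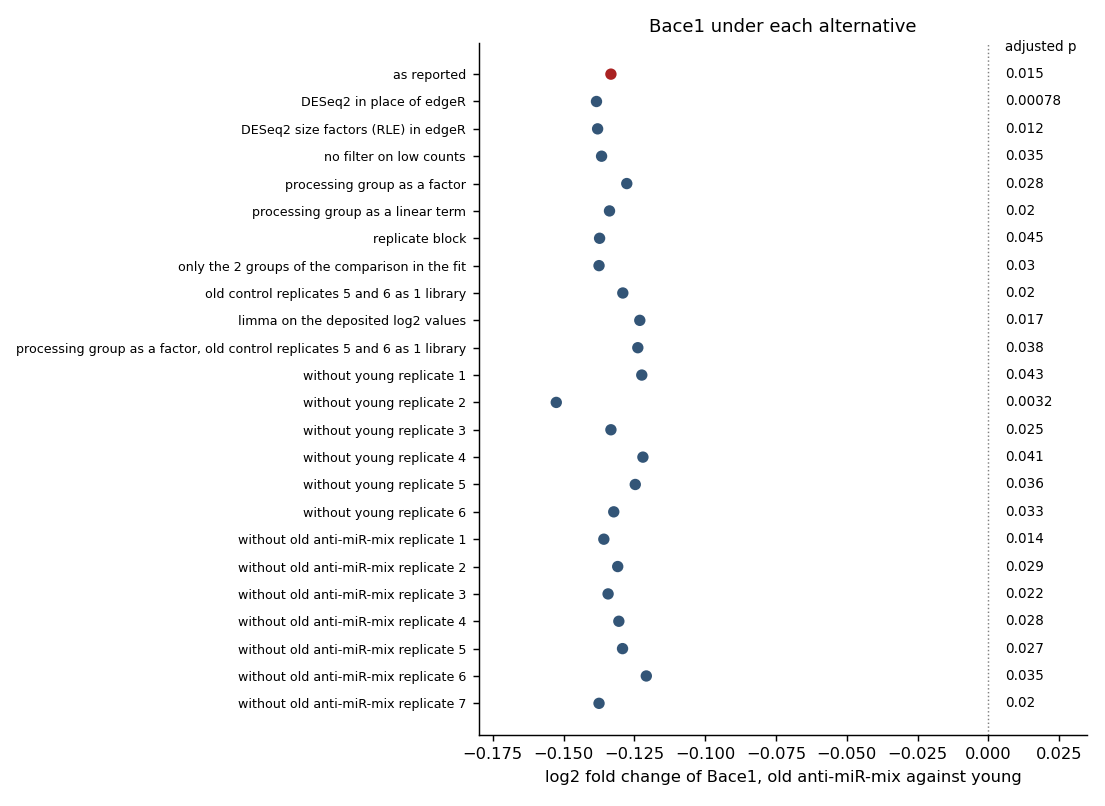
Log2 fold change of Bace1 in old anti-miR-mix against young (horizontal axis) as reported, in red, and under 23 alternatives, in blue, with the adjusted p of each at the right. All values lie between -0.153 and -0.121.

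No gamma-secretase gene was called in any comparison. Psen2, a catalytic subunit, had a median of 4.04 log2 CPM in young (3.98 to 4.19), and means of 4.07 ± 0.08 (SD, n = 6) in young, 4.05 ± 0.06 (n = 6) in old control and 4.11 ± 0.08 (n = 7) in old anti-miR-mix. Old anti-miR-mix against old control gave 0.067 (SE 0.047, adjusted p 0.662), and the difference was above 0 in each of the 3 processing groups that hold both (0.143, 0.074 and 0.042). The groups overlapped over most of their range, from 3.95 to 4.12 in old control and from 3.99 to 4.24 in old anti-miR-mix. This is the gene with the miR-181a-5p match.

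Ncstn, the nicastrin subunit that receives substrates, was the steadiest of the 9. It lay between 6.01 (old control replicate 4) and 6.21 (old anti-miR-mix replicate 1) in all 19 libraries. Its log2 fold changes were -0.020, 0.038 and 0.017 (SE 0.031 to 0.032), with adjusted p of 0.73 to 0.828. The 95% intervals of the 3 differences lay within -0.088 and 0.102.

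Aph1a, the scaffold subunit, gave the largest fitted treatment difference of the 9. The old control libraries were at 2.26, 2.28, 2.49, 2.15, 2.16 and 2.33 log2 CPM and the old anti-miR-mix libraries at 2.58, 2.47, 2.42, 2.39, 2.25, 2.33 and 2.40. Old control replicate 3 was higher than 6 of the 7 old anti-miR-mix libraries, and young libraries (2.26 to 2.45) spanned the middle. The log2 fold change was 0.129 (SE 0.07, 95% interval -0.017 to 0.275, unadjusted p 0.0799, adjusted p 0.546), and it was 0.17 without old control replicate 3. Within processing groups 1, 2 and 4 it was 0.317, 0.113 and 0.078. At 135 to 206 reads per library a difference of this size was not detectable beyond the spread of the libraries.

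Psenen, the small subunit that activates the complex, spread most, from 1.12 (old anti-miR-mix replicate 7) to 1.84 (old anti-miR-mix replicate 1). Its means were 1.45 ± 0.18 (SD, n = 6), 1.54 ± 0.23 (n = 6) and 1.55 ± 0.22 (n = 7), and the log2 fold changes of 0.10, 0.004 and 0.105 had an SE of 0.119 to 0.124. The age difference was 0.057 without young replicate 6 and 0.18 without old control replicate 4, and that against young was 0.057 without old anti-miR-mix replicate 1 and 0.17 without replicate 7. All 4 gamma-secretase genes of the 9 were fitted above 0 in old anti-miR-mix against old control (0.004 to 0.129) and against young (0.017 to 0.105). None was called, and the treatment value of Psenen turned its sign in 9 of 23 alternatives. The 2 comparisons share the old anti-miR-mix libraries. Of 6 secretase genes of any type outside the 9, 5 were fitted above 0 against old control and 2 against young.

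Substrates were set against secretases by taking, in each library, the mean log2 CPM of the 3 substrates minus that of the 6 secretase genes, a description with no test. The means were 5.322 ± 0.033 (SD, n = 6) in young, 5.327 ± 0.050 (n = 6) in old control and 5.292 ± 0.028 (n = 7) in old anti-miR-mix. The young libraries lay between 5.269 and 5.372, the old control libraries between 5.257 and 5.379, and the old anti-miR-mix libraries between 5.246 and 5.33. The difference of group means was thus 0.005 with age and -0.035 with treatment, both no larger than the SD of the old control libraries. The treatment difference was -0.061 and that against young -0.057, in place of -0.030, when Aplp1 and Adam10 were left out. These are the most abundant gene on each side per kilobase of annotated exon. By median transcript length they would be App and Bace1, and leaving those out was not tested. The spread of the reduced difference is not given here. With all 9 genes, no difference of group means exceeded the larger SD of its groups.

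Adam10 minus Bace1, the pair that competes for App, was -0.31 ± 0.11 (SD, n = 6) log2 CPM in young, -0.19 ± 0.09 (n = 6) in old control and -0.21 ± 0.08 (n = 7) in old anti-miR-mix. The young libraries ranged from -0.46 to -0.13, the old control libraries from -0.34 to -0.09 and the old anti-miR-mix libraries from -0.33 to -0.10. Young replicate 2 was at -0.13, and the other 5 young libraries were between -0.46 and -0.27, a range into which 1 old control and 2 old anti-miR-mix libraries fell. App minus Aplp2 was 1.64 ± 0.05 in young, 1.77 ± 0.07 in old control and 1.71 ± 0.09 in old anti-miR-mix. These differences combine genes whose values were seen first and are given without a test.

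**Figure D4:**
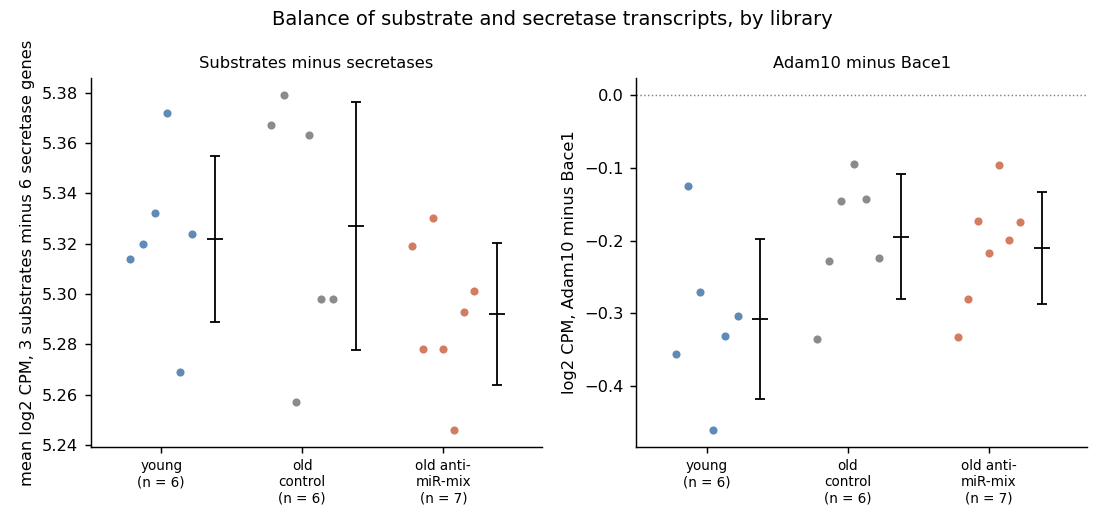
Mean log2 CPM of the 3 substrates minus that of the 6 secretase genes (left) and log2 CPM of Adam10 minus Bace1 (right) in each library, as points, with the mean and SD as bars; the vertical axes do not start at 0. The 3 groups overlap in both panels.

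The libraries of a group agreed closely for several of the 9 genes. The within-group SD of log2 CPM was 0.049 for Ncstn, 0.05 for Aplp2, 0.051 for App and 0.052 for Bace1, and 97.5%, 97.1%, 96.5% and 96.3% of all tested genes had a larger SD. The median over all genes was 0.147. Psen2 (0.074), Adam10 (0.081), Aph1a (0.105) and Aplp1 (0.114) were also below this median, and Psenen, with the fewest reads, was above it at 0.216. Aplp1 is among the 0.301% most abundant genes, yet its SD was larger than that of App and Aplp2. Genes with few reads had larger SDs, so the median over all genes is a loose measure for abundant genes. Among genes of like level, the median SD was 0.0764 for Adam10, 0.0776 for Aplp1 and 0.205 for Psenen, each below the SD of the gene. It was 0.0772 for Ncstn, 0.085 for Aplp2, 0.0777 for Bace1, 0.1023 for Psen2 and 0.1756 for Aph1a, each above it. With these SDs the 95% intervals for App, Aplp2, Bace1 and Ncstn reached no farther than 0.154 from 0, apart from the called Bace1 difference.

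**Figure D5:**
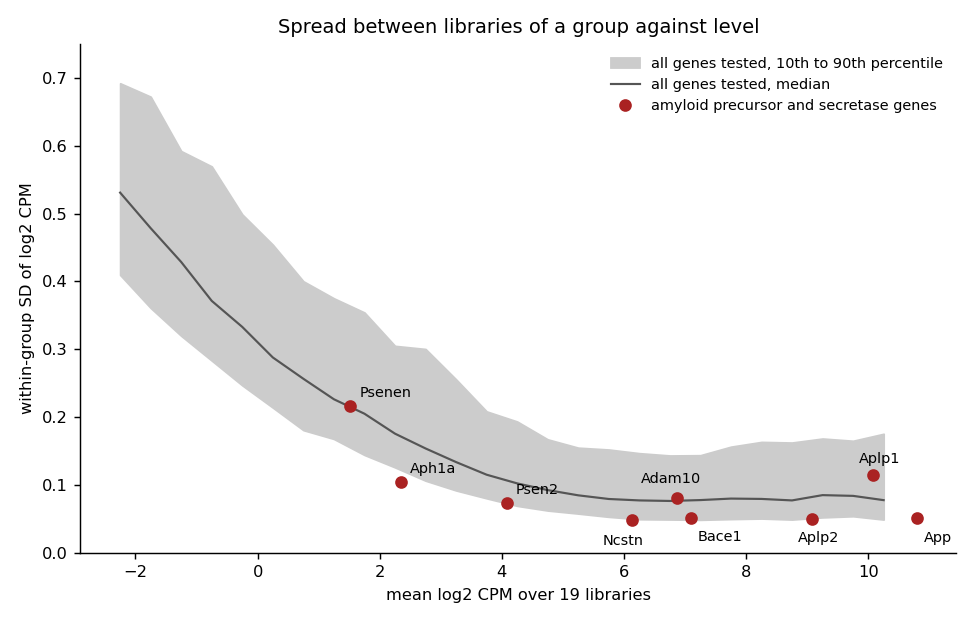
Within-group SD of log2 CPM (vertical axis) against mean log2 CPM over 19 libraries (horizontal axis). The grey band runs from percentile 10 to percentile 90 of all tested genes in bins of level with at least 20 genes, and the line is their median. The red points are the 9 genes. Aplp2, Bace1, Ncstn, Psen2 and Aph1a lie near the lower edge of the band or below it. Adam10, Aplp1 and Psenen lie close to or above the median. App, at 10.79 log2 CPM, lies beyond the right end of the band, whose last bin is centred at 10.25.

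Other genes of amyloid precursor processing were counted in a list of 56 genes written by role, of which 55 were tested. In old control against young, 0 of the 55 were called higher, beside 1.32% of all genes, and 1 lower, beside 1.34%. In old anti-miR-mix against old control, 1 was called higher, beside 0.669%, and 0 lower, beside 0% of all genes. In old anti-miR-mix against young, 2 were called higher, beside 4.57%, and 3 lower, beside 1.63%. None of 6 other secretase genes (such as Aph1b, Bace2 and Adam17), of 8 adaptors of the App tail or of 11 sorting and trafficking genes was called in any comparison. The genes called were modulators of secretase activity, genes of amyloid-beta clearance and 1 other secretase substrate.

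Apoe, a lipid carrier made by astrocytes and microglia that binds amyloid-beta, was highest in old anti-miR-mix, with the old control mean between it and young. The young libraries were at 9.90 to 10.17 log2 CPM (median 10.11), the old control libraries at 10.12 to 10.46 and the old anti-miR-mix libraries at 10.44 to 10.87. The log2 fold change was 0.543 against young (adjusted p 6.76e-05, groups not overlapping) and 0.316 against old control (adjusted p 0.0408), by edgeR's quasi-likelihood test. In old control against young the same test gave 0.226 (SE 0.073, adjusted p 0.0992), so the age difference was not called. It was called in 3 of 22 alternatives. These were DESeq2 (adjusted p 0.0498), the processing group as a factor (0.0422) and 2 groups in the fit (0.0438). The call in old anti-miR-mix against young held in 23 of 23 alternatives, whereas that against old control was lost in 13 of 23. It was lost on leaving out any one of old control replicates 1, 2, 4, 5 and 6 or of old anti-miR-mix replicates 2, 3, 4 and 5 (adjusted p 0.0567 to 0.125), and with the processing group as a factor (adjusted p 0.244). Microglial markers moved with it (2 of 6 called higher in old anti-miR-mix against old control, beside 0.669% of all genes, with a summed level of 365.2 to 486.8 CPM against 337 to 383.4). Of 6 astrocyte markers, 0 were called in that comparison (2644 to 3375 CPM against 2614 to 2954) and 2 were called higher against young (2217 to 2634 CPM), where the sums did not overlap. The part of both in the Apoe result was not tested.

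Of the amyloid-beta clearance genes, Ece1, an endothelin-converting enzyme that also degrades the peptide, fell in old anti-miR-mix against young (log2 fold change -0.176, adjusted p 0.0151). Ephb2, a synaptic receptor cut by gamma-secretase, fell in the same comparison (-0.287, adjusted p 0.0125). Both calls held in 23 of 23 alternatives, with the smallest differences, -0.130 and -0.215, on leaving out young replicate 4. In old control against young, Ece1 gave -0.134 (adjusted p 0.111) and Ephb2 -0.192 (adjusted p 0.15). Old anti-miR-mix against old control gave -0.042 (adjusted p 0.799) for Ece1 and -0.095 (adjusted p 0.68) for Ephb2. By edgeR's quasi-likelihood test, neither the age nor the treatment part was thus called by itself for these 2 genes.

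Itm2a, a relative of the secretase modulator Itm2b, fell with age (-0.314, adjusted p 0.0304) and was lower in old anti-miR-mix than in young (-0.277, adjusted p 0.0254). The old control libraries, at 5.15 to 5.32 log2 CPM, were all below the young libraries at 5.41 to 5.73. The age call was lost on leaving out any one of young replicates 1, 2, 3 and 6 or old control replicates 1, 3, 4, 5 and 6 (adjusted p 0.0507 to 0.081). It was also lost with old control replicates 5 and 6 as 1 library (adjusted p 0.0558) and with that and the processing group as a factor (0.117), 11 of 22 alternatives in all. The other call was lost without young replicate 1, 2 or 6 or old anti-miR-mix replicate 1, 3 or 7 (adjusted p 0.0502 to 0.0723), with 2 groups in the fit (0.0678) and with the processing group as a factor and old control replicates 5 and 6 as 1 library (0.0542), 8 of 23 in all. Gsap, a protein reported to modulate gamma-secretase, rose in old anti-miR-mix against young (0.214) at an adjusted p of 0.0496, just under the threshold, and lost the call in 18 of 23 alternatives. These included leaving out young replicate 1, 2, 4, 5 or 6 or old anti-miR-mix replicate 2, 3, 4, 5 or 7 (adjusted p 0.0518 to 0.114). By edgeR's quasi-likelihood test, Gsap was not called in old control against young (0.03, adjusted p 0.857). Nor was it called in old anti-miR-mix against old control (0.184, adjusted p 0.262).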

How the data were processed

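Polyadenylated RNA of CA1 tissue was sequenced by the authors as single-end reads of 50 bases (TruSeq RNA v2 libraries, HiSeq). Per the study's methods and the submitters' processing notes, reads were checked with FastQC 0.11.5, aligned to mm10 with STAR 2.5.2b and counted per gene with featureCounts (Subread 1.5.1). Strand and multi-mapping options and the annotation release are not given in the sources used here. Raw counts per Ensembl gene were deposited for 19 libraries, together with log2 values of 18761 genes. The deposited log2 values equalled log2(CPM + 1) minus a slope times the processing group, to within 3.4e-08. Of the per-sample columns, 0 were left unassigned.

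Groups were taken from the descriptions of the libraries, because library titles also carry the name anti-miR-mix for mice that did not receive it. A gene was tested when 50% or more of the libraries had 5 or more reads. After TMM normalisation, the quasi-likelihood test of edgeR 4.0.16 (R 4.3.3; glmQLFit and glmQLFTest) was run with the 3 groups in 1 fit, no covariate and Benjamini-Hochberg adjustment at 0.05. Log2 CPM used a prior count of 2. The script was tested on simulated data. Alternatives were DESeq2 1.42.0, its size factors, no filter, the processing group as a factor or a linear term, a replicate block, fits of 2 groups, old control replicates 5 and 6 as 1 library, limma 3.58.1 on the deposited values, and leaving out each library. The processing group as a factor with replicates 5 and 6 as 1 library was added after seeing the data.

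The members and lists were chosen with earlier results of these data known. Genes named were the 9 members and, per comparison, up to 6 called genes of the pathway list, with other list genes named only as examples of a role and without values; 1 gene of the rule is not reported here. Gene models and 3′UTRs were those of GENCODE (GRCm38), and symbols were matched for 48349 of 48709 identifiers. In each library a count of 0 allows up to 3 reads, and intervals cover the spread between libraries.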

Additional observations from a re-analysis of the deposited data

Results flagged for a closer look

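Of 48 sets of libraries examined (the 9 genes and other genes of the pathway by log2 CPM, and substrates minus secretases, in each of 3 groups), 3 had a single library far from the rest of its group by Dixon's criterion, where chance gives about 1 in 20. Aplp2 in young replicate 2 was at 9.05 log2 CPM, with the other 5 young libraries between 9.13 and 9.17. Adam10 in young replicate 4 was at 6.75, with the others between 6.85 and 6.9. Adam10 in old control replicate 1 was at 6.7, with the others between 6.89 and 6.98.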

How the results depend on the processing

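The count of called genes among the 9 was 0, 0 and 1 (Bace1) in every alternative run. Over all genes, old control against young called 514, and gave 914 with DESeq2, 323 without the filter, 772 with 2 groups in the fit, 290 with old control replicates 5 and 6 as 1 library, 221 with this and the processing group as a factor, and 212 to 691 when a library was left out. It fell by over 1.5 times without young replicate 4 or old control replicate 1, 2, 3, 5 or 6. Old anti-miR-mix against old control called 129, and gave 267 with DESeq2, 9 with the processing group as a factor, 55 with 2 groups in the fit, 28 with replicates 5 and 6 as 1 library, 4 with that and the processing group as a factor, and 23 to 247 when a library was left out. It rose without old anti-miR-mix replicate 1 or 6 and fell without old control replicate 1, 2, 5 or 6 or old anti-miR-mix replicate 2, 3, 4 or 5. Old anti-miR-mix against young called 1196, and 892 to 1256 without a library. With replicate numbers as a block, the 3 comparisons called 651, 249 and 1192 genes, and the adjusted p of Bace1 in old anti-miR-mix against young was 0.0453. Correlations between same-numbered libraries were low (-0.17 to 0.214, 6 of 18 pairs over 0.1), and 5 of 18 libraries were closest to their own number. In all 3 groups replicate 1 was in processing group 1 and replicate 6 in processing group 4. The labels state no pairing, and whether same-numbered libraries share a batch was not tested.

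Small differences turned their sign. In old anti-miR-mix against old control, Psenen was -0.000981 with the processing group as a linear term, and with 2 groups in the fit Aplp1 was -0.00156, Aplp2 -0.00263 and Psenen -0.00332. Aplp2 was -0.00379 with replicates 5 and 6 as 1 library. App in old anti-miR-mix against young was 0.00542 with the block and 0.00114 with the processing group as a factor and replicates 5 and 6 as 1 library. Aplp1 in old control against young was -0.00623 with limma on the deposited values. With 1 library left out the ranges were -0.0157 to 0.0439 (Aplp1) and -0.0357 to 0.0127 (Psen2) for age, and -0.0422 to 0.0263 (Aplp1), -0.0114 to 0.0181 (Aplp2), -0.0701 to 0.0650 (Psenen) and -0.0305 to 0.0737 (Itm2a) for treatment. For old anti-miR-mix against young they were -0.0160 to 0.00910 (App) and -0.0240 to 0.0483 (Aplp1). The cause was not tested. Substrates minus secretases moved by less than the spread between libraries in every alternative, and its age difference was -0.0018 with the deposited values and -0.00545 (without young replicate 5) to 0.0192 (without old control replicate 3) when a library was left out. Depth limits Psenen and Aph1a.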

Other observations

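Other groups of the pathway list were described by role, as fitted log2 fold changes and without a test of the lists. Of 10 other substrates of BACE1 or gamma-secretase (adhesion and signalling proteins such as Chl1, Sez6 and Notch1), 8 were fitted below 0 in old anti-miR-mix against old control (median -0.071, beside 0 for all genes tested) and 8 in old anti-miR-mix against young (median -0.056, beside 0.003). Of these 10, 0 were called in the first comparison, beside 0.669% of all genes, and 1, Ephb2, in the second, beside 6.2%. The 2 comparisons share the old anti-miR-mix libraries. Neuronal markers had medians of -0.059 (7 pan-neuronal), -0.113 (6 CA1 pyramidal) and -0.063 (6 inhibitory neuron) in old anti-miR-mix against old control. Against young these medians were -0.058, 0.036 and -0.005. The part of cell composition in the values of these lists was not tested. Of 11 sorting and trafficking genes (such as Sorl1, Vps35 and Picalm), 9 were fitted below 0 in old anti-miR-mix against old control, with a median of -0.029 beside 0 for all genes tested, and 0 were called beside 0.669% of all genes. In old anti-miR-mix against young 6 of the 11 were below 0 (median -0.004), and in old control against young 5 (median 0.012).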
